A study of Mus musculus with 8 samples.

Results

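Sorl1 belongs to the sorting and endocytic receptors that carry proteins and lipoproteins between the cell surface, endosomes and the Golgi apparatus. The members described here were Sorl1, its relative sortilin (Sort1), the LDL receptor relatives Lrp1, Lrp5, Lrp6 and Vldlr, their chaperone Lrpap1, and the HDL receptor Scarb1, which is not an LDL receptor relative by sequence but takes up lipoprotein cholesterol in liver. Sorl1 was chosen by its higher level in NZO liver on these same arrays, so its strain difference is given as a description with no test, and the other members were added to ask whether they moved with it. The other members and the lists below were also chosen with earlier results of these arrays known. Their p-values are therefore not independent tests. All 8 gene names were found among the 34836 gene names of the array. They were measured by 17 of 55681 probes, and all 17 were among the 27643 probes that were well above background on every array of at least 1 strain.

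Livers of male New Zealand Obese mice (strain NZO/HiBomDife, a polygenic model of obesity, fatty liver and type 2 diabetes) were compared with those of male C57BL/6 (B6) mice. Each strain had 4 mice, aged 6 weeks, and all 8 mice had been fed a diet with 45% fat, so no group on another diet entered the comparison. Total RNA of each liver was hybridised to 1 single-colour Agilent array with probes of 60 bases. The 75th percentile of the processed signal, which was used to scale each array, was between 119 and 142 in NZO and between 137 and 159 in B6. Levels below are log2 signals relative to that percentile, given as mean ± SD (n = 4 mice), and differences are NZO minus B6 on the log2 scale ± SE. Levels of different probes are not comparable with each other, and the letters a, b and c only order the probes of 1 gene from bright to dim. A probe was called higher or lower at an unadjusted p of at most 0.05 and a log2 difference of at least 0.7 in size. These cut-offs are those of the study's methods, applied here to the p of a limma fit across all tested probes.

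Sorl1 and Sort1 share a VPS10 domain, which binds cargo in the Golgi and in endosomes, and Sorl1 in addition carries repeats of the LDL receptor type. In liver, sortilin is known for its part in the secretion and uptake of apolipoprotein B particles, Lrp1 for the clearance of chylomicron remnants, and Vldlr for binding triglyceride-rich particles, although its expression in healthy liver is low. Lrp5 and Lrp6 act as coreceptors of Wnt ligands, and Lrpap1, the receptor-associated protein, keeps newly made receptors of the family from binding ligands too early.

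The sequences of probes of Sorl1, Vldlr, Scarb1 and Sort1 are given to identify the probes behind the values below. Each line holds the 30 bases at the start of a probe as the scanner files write it, and the coordinates are those of the whole probe in mm9.
Sorl1 a, chr9:41776572-41776631, minus strand: gttgatggtttattttaaaagatgcacttt
Sorl1 b, chr9:41772997-41773056, minus strand: tataacttcgatcgcctcggctaggtttcc
Vldlr a, chr19:27324050-27324109, plus strand: ctttttcaatggttgggacaatggcaatag
Vldlr b, chr19:27321104-27321163, plus strand: acagtgagacaaaagatatcaacacaacag
Scarb1 b, chr5:125761540-125761599, minus strand: aatgctttttgttttggagtggtagtaaaa
Sort1 a, chr3:108158404-108158463, plus strand: gggacacagcttgtcccagaatccagctcc
Sort1 b, chr3:108164349-108164408, plus strand: gtgtttaactttgtactggtaattttctgt
Sort1 c, chr3:108157150-108159198, plus strand: cacaaagcagaattccaagtcaaattctgt

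The last of these, Sort1 c, spans 2049 bases of genome with 60 bases of probe and therefore crosses a splice junction. The files assign Sorl1 a to the RefSeq transcript and Sorl1 b to an Ensembl transcript and cDNA clones. Sort1 b matched both RefSeq variants, Sort1 a matched 1 of them and Sort1 c the other.

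In GRCm38.p6, RefSeq places Sorl1 at chr9:41964709-42124297, Vldlr at chr19:27216480-27254231, Scarb1 at chr5:125277087-125341094 and Sort1 at chr3:108283974-108361519. These positions are of a later build than those of the probes and cannot be laid over them, and the exon or UTR under each probe was not analysed here. The study paired Sorl1 with miR-10a-3p, miR-193b-5p and miR-185-5p, small RNAs that pair with target transcripts through a short seed at their start. Of these, the mature sequences of the following were matched in RefSeq (GRCm38.p6), with the seed, bases 2 to 8, in capitals.
mmu-miR-10a-3p, chr11:96317227-96317248, plus strand: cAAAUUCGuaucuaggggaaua
mmu-miR-193b-5p, chr16:13449533-13449554, plus strand: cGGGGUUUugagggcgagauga

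Their seeds differ from each other, and no miRNA level was analysed here.

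Sorl1 a, the probe that carries the difference Sorl1 was chosen for, stood at -0.11, -0.03, 0.17 and 0.23 in NZO mice 007, 003, 009 and 011. In B6 mice 011, 010, 015 and 009 the same probe stood at -3.02, -3.17, -3.12 and -3.51. The 4 NZO livers lay together far above the 4 B6 livers, with a mean of 0.07 ± 0.16 against -3.20 ± 0.21. The difference was 3.27 ± 0.14, or 9.65-fold, and by size it ranked 96 among all increases. The probe was well above background on all 8 arrays, with processed signals of 116 to 160 in NZO and 13.7 to 19.6 in B6. The B6 signals were dim, and the fold depended on how background was handled: the difference was 1.501 with the normexp background correction, which adds an offset of 50 to each signal, and 1.90 in the deposited table, whose raw medians keep their background. Because the tissue was measured in bulk, more cells that express Sorl1 and more Sorl1 RNA per cell cannot be told apart.

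The second Sorl1 probe, Sorl1 b, did not show this separation. It was dim in both strains, with processed signals of 11.6 to 31.1 in NZO and 10.4 to 21.4 in B6. The probe was still well above background on every array. Whether its dimness hides a strain difference was not tested, so its overlap is not read against the difference of Sorl1 a. Sorl1 b stood at -2.004, -3.36, -2.63 and -3.15 in NZO mice 007, 003, 009 and 011 and at -3.39, -3.75, -2.67 and -3.49 in B6 mice 011, 010, 015 and 009. The strains overlapped, with NZO 007 highest and B6 010 lowest. The difference was 0.54 ± 0.33, and it was -0.15 among the 3 arrays of the slide that held both strains, 0.17 within scan day 1 and 1.44 within scan day 2. For Sorl1 a the same values were 3.12, 3.27 and 3.16. With 1 mouse left out, the difference of Sorl1 a was between 3.17 and 3.33. That of Sorl1 b was between 0.28 (without NZO 007) and 0.76 (without B6 015), the latter past the fold threshold.

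**Figure D1:**
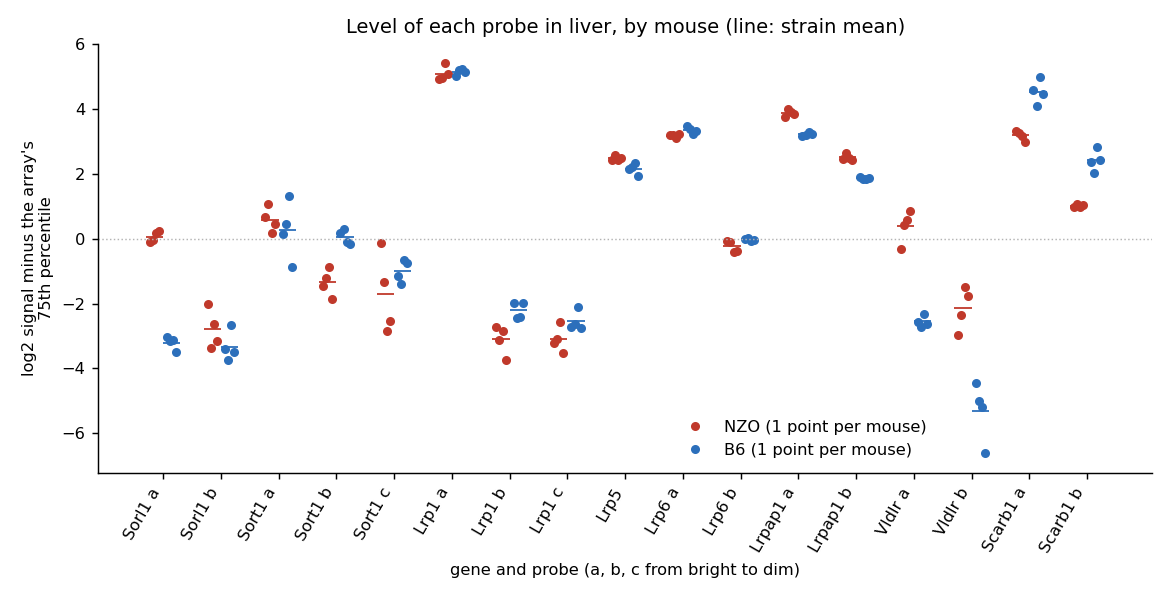
Level of each probe of the 8 genes in the liver of each mouse, as log2 processed signal minus the 75th percentile of the array (vertical axis), with 1 point per mouse (red NZO, blue B6) and a line at the mean of each strain. Sorl1 a, Vldlr a and Vldlr b lay higher in all 4 NZO mice than in any B6 mouse, Scarb1 a, Scarb1 b and Sort1 b lay lower, and Sorl1 b overlapped.

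Among the LDL receptor relatives, Vldlr rose in NZO liver on the probe that was well above background in every mouse, Vldlr a. Vldlr a stood at -0.31, 0.41, 0.59 and 0.86 in NZO mice 007, 003, 009 and 011 and at -2.57, -2.71, -2.31 and -2.62 in B6 mice 011, 010, 015 and 009. Every NZO liver was above every B6 liver, and NZO 007 was the lowest of its strain. The means were 0.39 ± 0.50 and -2.55 ± 0.17, a difference of 2.94 ± 0.24 or 7.69-fold, and limma's adjusted p over all 27643 probes was 0.000111. The difference was 2.92 within the shared slide, 3.13 within scan day 1 and 2.29 within scan day 2.

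Vldlr b, which lies elsewhere in the gene, was read from the edge of detection in B6. It stood at -2.96, -2.37, -1.49 and -1.77 in NZO mice 007, 003, 009 and 011 and at -4.45, -4.99, -5.19 and -6.62 in B6 mice 011, 010, 015 and 009. The strains did not overlap, and the probe was well above background on 4 of 4 NZO arrays but on 1 of 4 B6 arrays, so it passed the filter through NZO alone. Its difference of 3.17 ± 0.49 is therefore given as a description, with no test, and adds no second support to Vldlr a. As with Sorl1, both Vldlr differences were smaller with the normexp correction (1.64 for a and 0.73 for b) and in the deposited table (1.90 and 0.91), and Vldlr a stayed past the thresholds there.

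Scarb1, the receptor that takes up cholesterol esters from HDL, fell in NZO liver on both of its probes. Scarb1 a, which matched both RefSeq transcripts, stood at 3.33, 3.25, 3.18 and 2.98 in NZO mice 007, 003, 009 and 011 and at 4.59, 4.09, 5.004 and 4.47 in B6 mice 011, 010, 015 and 009. Scarb1 b stood at 0.97, 1.08, 0.98 and 1.04 in the NZO mice and at 2.37, 2.02, 2.83 and 2.43 in the B6 mice, in the same order. On both probes all 4 NZO livers were below all 4 B6 livers, and the B6 mice varied more among themselves, with B6 015 highest and B6 010 lowest. The differences were -1.36 ± 0.19 for Scarb1 a (limma's adjusted p = 0.00197) and -1.40 ± 0.16 for Scarb1 b (limma's adjusted p = 0.000783). Unlike the dim probes of Sorl1 and Vldlr, they moved little with the processing, from -1.59 to -1.20 and from -1.56 to -1.26 over 17 alternatives each. Within the shared slide they were -1.30 and -1.34.

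Sort1, the other VPS10 domain receptor among the members, passed the thresholds on Sort1 b but not on Sort1 a or Sort1 c. Sort1 b stood at -1.46, -1.21, -0.87 and -1.86 in NZO mice 007, 003, 009 and 011 and at 0.17, 0.31, -0.11 and -0.18 in B6 mice 011, 010, 015 and 009. It fell in NZO liver with no overlap between the strains, by -1.40 ± 0.22 (limma's adjusted p = 0.00348), in the opposite direction to Sorl1 a. Within the shared slide, scan day 1 and scan day 2 it was lower in NZO as well. With the normexp correction its difference was smaller, at -0.83, and stayed past the thresholds.

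Sort1 a stood at 0.67, 1.07, 0.17 and 0.47 in the NZO mice and at 0.16, 0.44, 1.33 and -0.86 in the B6 mice, in the same order. The NZO mice lay within the wider range of the B6 mice, and the difference of 0.33 ± 0.42 did not pass (limma's adjusted p = 0.661). With 1 mouse left out, that difference was between -0.05 (without B6 009) and 0.68 (without B6 015). Sort1 c, across the splice junction, stood at -0.14, -1.33, -2.85 and -2.54 in the NZO mice and at -1.14, -1.41, -0.65 and -0.76 in the B6 mice. Its mean difference of -0.73 ± 0.56 did not pass either (limma's adjusted p = 0.443), with NZO 007 above all B6 mice and NZO 009 and NZO 011 below all of them. Single mice set its size: it was -1.25 and called lower without NZO 007, -0.35 without NZO 009 and -0.45 without NZO 011. With mouse number as a replicate block it was -1.75 and called lower as well. The relation between these probes and the share of each Sort1 variant was not tested.

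**Figure D2:**
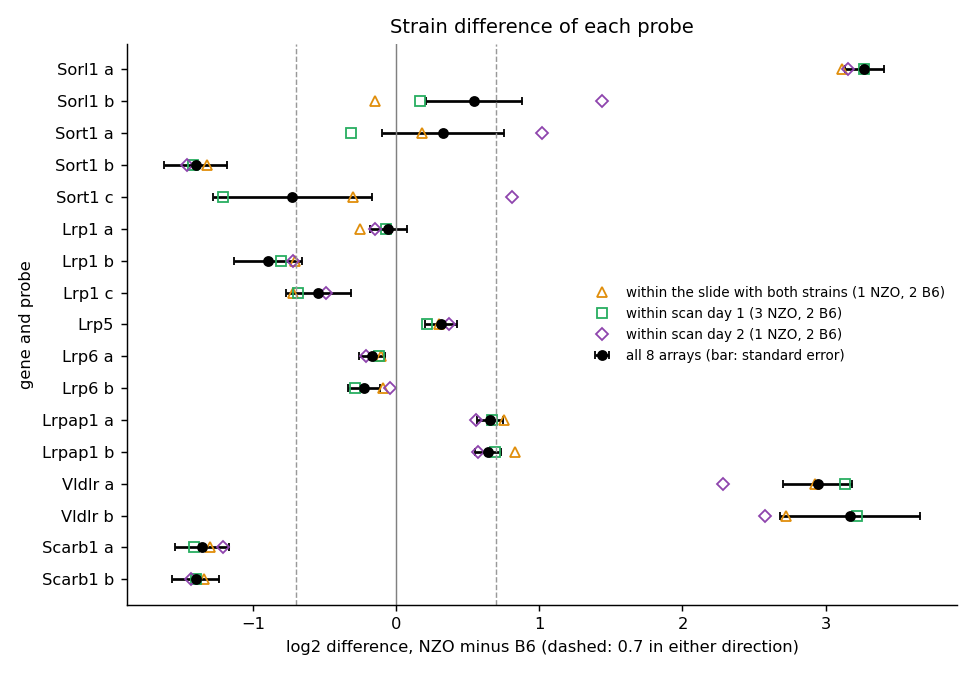
Log2 difference, NZO minus B6, of each of the 17 probes over all 8 arrays (black, bar: standard error), within the slide that held both strains (triangles), within scan day 1 (squares) and within scan day 2 (diamonds), with dashed lines at 0.7 in either direction. Sorl1 a, Vldlr, Scarb1 and Sort1 b kept their side in each subset, whereas Sorl1 b, Sort1 a and Sort1 c had values on both sides of 0.

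The large endocytic receptor Lrp1 was measured by a bright probe for its RefSeq transcript, and that probe showed little strain difference. Lrp1 a stood between 4.93 and 5.41 in NZO and between 5.01 and 5.23 in B6, and the difference was -0.05 ± 0.13 (limma's adjusted p = 0.823). Lrp1 b, a dim probe designed on cDNA clones, had a difference of -0.89 ± 0.24 without overlap. It was well above background on 3 of 4 NZO arrays and so passed the filter through B6 alone, and its value is a description with no test. It did not reach the thresholds with the normexp correction (-0.12), in the deposited table (-0.51), with slide as a fixed term (-0.70) and without NZO 011 (-0.68). Lrp1 c, also dim and assigned to an Ensembl transcript, had a difference of -0.54 ± 0.23 with overlapping strains and did not pass (limma's adjusted p = 0.164), although without NZO 009 it was -0.72 and called lower.

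The Wnt coreceptors differed little between the strains. Lrp5 stood between 2.42 and 2.58 in NZO and between 1.93 and 2.34 in B6, without overlap, and its difference of 0.32 ± 0.11 did not pass (limma's adjusted p = 0.103). For Lrp6 the B6 mice lay above the NZO mice on both probes, with differences of -0.17 ± 0.09 (limma's adjusted p = 0.267) and -0.22 ± 0.11 (limma's adjusted p = 0.235), and neither passed. Lrp5 and Lrp6 thus had differences of opposite sign, each below the fold threshold.

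Lrpap1, the chaperone of the LDL receptor relatives, had small and even differences on both probes. Lrpap1 a stood at 3.76, 4.001, 3.90 and 3.85 in NZO mice 007, 003, 009 and 011 and at 3.17, 3.20, 3.30 and 3.22 in B6 mice 011, 010, 015 and 009. The difference was 0.66 ± 0.09 (limma's adjusted p = 0.00203), and for Lrpap1 b it was 0.64 ± 0.09 (limma's adjusted p = 0.00207). All NZO livers were above all B6 livers on both probes, and the differences were larger than the spread between mice but under the fold threshold of 0.7, so neither probe was called. With slide as a fixed term they were 0.75 and 0.83 and both were called.

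Sorl1 was therefore not the only member with a large difference, and the members did not move as 1 group. Of the 15 probes of the 7 members other than Sorl1, 2 met the thresholds on the higher side (both of Vldlr), 4 on the lower side (both of Scarb1, Sort1 b and Lrp1 b) and 9 did not. Over all probes tested, 5.19% were higher and 7.05% were lower. Without Vldlr b and Lrp1 b, which passed the filter through 1 strain alone, 13 probes well above background on all 8 arrays were left, with 1 higher and 3 lower. Over all 24460 such probes, 4.51% were higher and 4.75% were lower. With limma's adjusted p and the same fold, the counts among the 13 probes were again 1 and 3. Of all 27643 probes, 4.36% were then higher and 5.27% lower. That wider set takes in probes that passed the filter through 1 strain alone, and no share over the 24460 is given. Groups did not overlap for 5 of the 15 probes with NZO above and for 6 with B6 above. Of all 27643 probes, 11.4% and 10.6% did so. The median difference of the 15 probes was -0.17, and that of all probes tested was 0.02. The members were chosen with earlier results of these arrays known, so these shares describe the list and test nothing about it. When the probes of each gene were averaged first, Scarb1, with a mean of -1.38, was called lower, and Sort1, with a mean of -0.60, was not called. The share of all genes called after averaging is not given here, so no count is read from these means. The mean of the Vldlr probes is not read here, since it takes in Vldlr b.

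**Figure D3:**
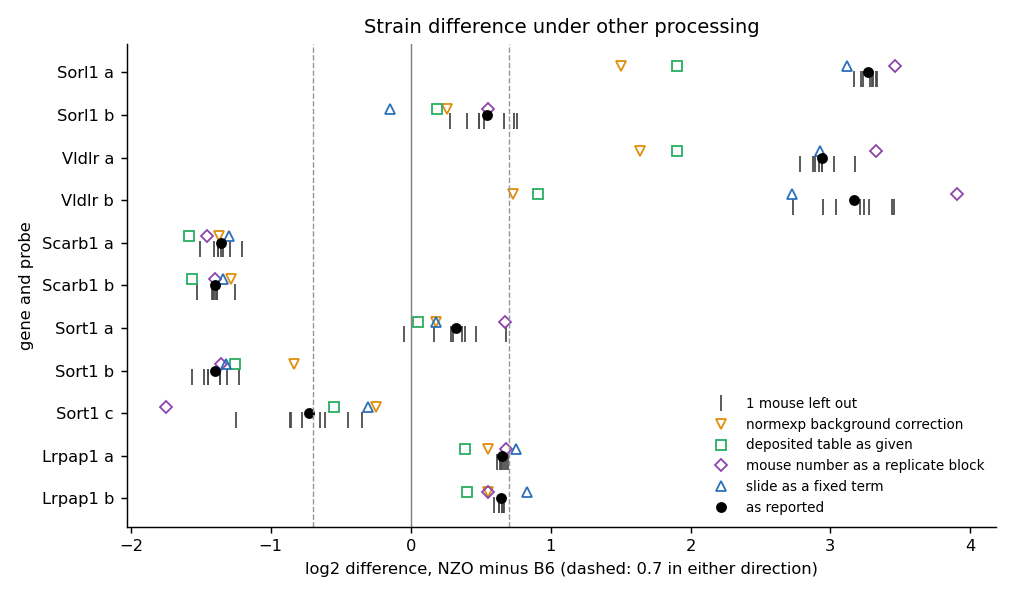
Log2 difference, NZO minus B6, of the probes of Sorl1, Vldlr, Scarb1, Sort1 and Lrpap1 as reported (black) and under other processing (open symbols; short lines: 1 mouse left out), with dashed lines at 0.7 in either direction. The differences of Sorl1 a and of both Vldlr probes shrank with the normexp correction and in the deposited table, to 1.501 and 1.90 for Sorl1 a, while those of Scarb1 stayed between -1.59 and -1.20. That of Sort1 b was -0.83 with the normexp correction.

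The wider machinery that moves these receptors was read from a list of 38 genes, of which 35 had at least 1 tested probe, 41 probes in all. Of these 41 probes 1 was higher in NZO, 2 were lower and 38 did not pass, with a median difference of 0.02, where 5.19% of all probes were higher and 7.05% lower. Both lower probes, of Mylip and Lrp2, were well above background on 3 of 4 NZO arrays and passed the filter through B6 alone, so they are described with no test. All 3 probes fell in different roles. Gga2, an adaptor that binds the tails of sorting receptors such as sortilin at the Golgi, rose by 1.33 ± 0.22 (limma's adjusted p = 0.00494). It stood at 1.61, 2.22, 1.79 and 2.35 in NZO mice 007, 003, 009 and 011 and at 0.53, 1.02, 0.26 and 0.85 in B6 mice 011, 010, 015 and 009. The strains did not overlap, and the difference stayed between 0.96 and 1.58 over 17 alternatives.

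Mylip, the ubiquitin ligase that sends receptors such as Vldlr to lysosomes, had a difference of -0.79 ± 0.15 on its dim probe. Its brighter probe had a difference of -0.61 ± 0.15 (limma's adjusted p = 0.0306), under the fold threshold, and all B6 mice were above all NZO mice on both. The dim probe did not reach the thresholds with the normexp correction (-0.04), in the deposited table (-0.34), with slide as a fixed term (-0.65) and without B6 010 (-0.68). For Lrp2 (megalin), an endocytic receptor best known from kidney, 1 dim probe had a difference of -1.39 ± 0.50 with overlapping strains, and its other probes were not well above background on any array. That Lrp2 probe did not reach the thresholds with the normexp correction (-0.26), with slide as a fixed term (-1.03), with mouse number as a replicate block (-1.04), by the methods' t-test, and when NZO 007, NZO 009, B6 010 or B6 009 was left out.

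The 38 probes that did not pass had differences between -0.75 and 0.65. Genes named from here to the end of the paragraph were chosen after their values were seen. Vps35, a core subunit of the retromer that returns Sorl1 and Sort1 from endosomes, had a difference of -0.0032 ± 0.23. Snx27, a sorting nexin that works with the retromer, had differences of 0.62 ± 0.13 and 0.52 ± 0.10 on its probes (limma's adjusted p = 0.0166 and 0.0119), with all NZO mice above all B6 mice but under the fold threshold. Pdzk1, the scaffold that holds Scarb1 at the surface of hepatocytes, had differences of 0.27 and 0.40, in the opposite direction to Scarb1, and neither passed. The VPS10 domain receptors Sorcs1 and Sorcs2 had differences of 0.32 and 0.65 that did not pass, the latter on a probe well above background on 2 of 4 B6 arrays, and Sorcs3 was well above background on 0 NZO and 2 B6 arrays and was not tested.

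**Figure D4:**
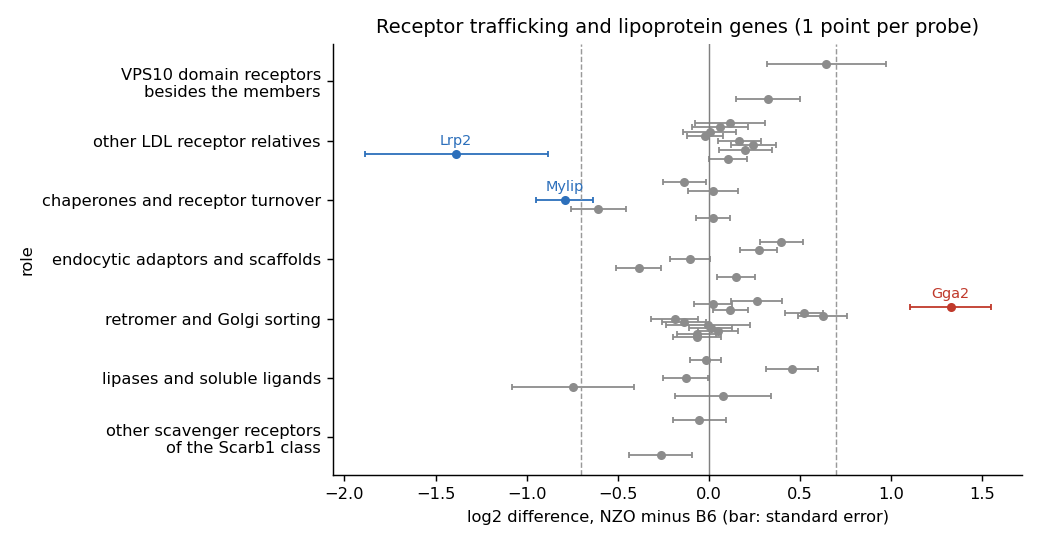
Log2 difference, NZO minus B6, of the 41 tested probes of the receptor trafficking and lipoprotein list by role (bar: standard error), with dashed lines at 0.7 in either direction; red marks the probe called higher, blue those called lower. Gga2 (1.33) and Lrp2 (-1.39) lay outside the other probes, Mylip (-0.79) lay next to the lowest of the 38 probes that did not pass, and those lay between -0.75 and 0.65.

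Among all tested probes, those whose profile over the 8 arrays was most like that of Sorl1 a were found by the root mean square difference of the centred log2 levels. They were Dct (0.142), a melanin pathway enzyme, Ctse (0.235), an aspartic protease, Tcf24 (0.238), a transcription factor, Cyp2c38 (0.252), a cytochrome P450, and Guca1a (0.253), a guanylate cyclase activator of photoreceptors. The probes of Dct and Guca1a were well above background on all 8 arrays and had differences of 3.33 and 3.29. Those of Tcf24 and Cyp2c38 were so on 4 of 4 NZO arrays but on 3 and 2 of 4 B6 arrays. Their differences of 3.30 and 3.24 rest in part on B6 levels not well above background, so their size is not exact. The Ctse probe was so on 4 NZO arrays and 0 B6 arrays, and its level was at least 3.41-fold higher in NZO, taking for each B6 array the lowest signal among its probes well above background as the floor. Of those with a further probe, Dct and Tcf24 moved the same way on it (3.36 and 2.58), whereas the other Cyp2c38 probe was lower in NZO (-1.07). Counted over every tested probe, with unnamed probes and further probes of a gene included, Vldlr a held rank 19 and Sorl1 b rank 3132. No rank is read for Vldlr b, which was well above background on 1 of 4 B6 arrays. The places of Ctse, Tcf24 and Cyp2c38 also rest on B6 levels not all well above background and are not exact. These likenesses rest on the strain difference itself and on 8 arrays, and are a description.

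The tissue label was checked against its markers. All 5 hepatocyte markers, albumin (Alb) among them, were well above background on every array and none was called, and their summed level was 11.91 in NZO and 11.73 in B6. Of the adipocyte markers, Adipoq, Plin1 and Lep were not well above background on any array, whereas Fabp4 and Cidec were on all 8, and the summed level was 1.94 in NZO and 2.20 in B6. Of the pancreatic markers, Pnlip, Cpa1 and Prss2 were not well above background on any array and Cela1 was on all 8, with a summed level of -1.78 in NZO and -1.51 in B6. Of 4 Kupffer cell markers, 2 were lower in NZO, Clec4f by -1.13 and Marco by -1.83, where 7.05% of all probes were lower. Vsig4 and Timd4 had differences of -0.30 and -0.18 and did not pass. The summed level of the 4 was 5.33 against 6.23. The biliary markers had a summed level of -0.69 against 0.35. Of these Sox9 was lower by -1.46 and Krt19, at -0.65, did not pass. Krt7, at -0.998, passed the filter through B6 alone (well above background on 2 of 4 NZO arrays) and is a description with no test, and Epcam was not tested. The summed levels were 6.20 and 6.16 for sinusoidal endothelium, where the 6 probes had a median difference of -0.37, 5.52 and 5.89 for stellate cells, with no probe called, and 3.67 and 3.59 for leukocytes. Among the endothelial probes those of Stab2 had differences of 0.49, -0.93 and -0.44, of which the second was called lower, and those of Lyve1, Clec4g and Oit3 had -0.62, -0.23 and -0.29 and did not pass. The leukocyte sum was 4.23 in NZO 007 and between 3.44 and 3.51 in the other NZO mice. The 6 leukocyte probes had a median difference of -0.33, with Ptprc at -0.51, Cd68 at -0.42 and -0.25, Cd3e at 0.33 and Lyz2 at 0.41. Of the leukocyte markers none that was well above background on all 8 arrays was called, and Itgax, at -2.04, passed the filter through B6 alone (2 of 4 NZO arrays) and is a description with no test. Skeletal muscle markers varied between mice, with a summed level of 4.03 in NZO 007 and 2.46 in B6 010 and values between -2.43 and 0.47 in the others. The part of any of these cell types in the levels of Sorl1, Vldlr, Scarb1 or Sort1 was not tested.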

How the data were processed

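The members and lists were chosen with earlier results of these data known. Per the file headers, the deposited scanner files came from Agilent Feature Extraction 11.0.1.1 (the submitters' notes name 9.1) and hold for each spot the background-subtracted processed intensity and a flag for spots well above background. The deposited value table held the raw median intensity of all 59305 spots on every array (tolerance 0.01). From there, control spots and outlier spots were left out, spots of a probe were averaged, and log2 processed intensity was set relative to the 75th percentile of its array. Between 50.4% and 60.1% of spots were well above background, and no spot was saturated. The 27643 of 55681 probes whose spots cleared background in all 4 mice of either strain were fitted with limma 3.58.1 in R 4.3.3 without covariates, and p-values were adjusted by Benjamini-Hochberg over all of them. The fit was tested on simulated data. Differing mouse numbers within a strain were taken as separate mice, and p-values measure only the spread between these mice, whose number limits the precision.

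Named genes were every member probe, each gene of the trafficking list with a probe past the thresholds, the 5 genes most like Sorl1 a, and cell type markers by list. Further trafficking genes that did not pass were named after their values were seen, as marked in the text. Alternatives were quantile normalization, normexp (offset 50), the deposited table, no filter on dim probes, slide as a random block or fixed term, scan day, mouse number as a replicate block, the methods' t-test, the mean of a gene's probes, and leaving out each mouse. There were 5 slides and 2 scan days. The slide shared by both strains held NZO 003, B6 010 and B6 015. Scan day 1 held NZO 003, 009 and 011 and B6 010 and 015, and scan day 2 held the remaining arrays. Some items of the array are not reported here.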

Additional observations from a re-analysis of the deposited data

How the results depend on the processing

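Over 306 alternative values of 18 single probes (those of the members other than Sorl1, and the Gga2, Mylip and Lrp2 probes past the thresholds), 282 kept their direction and side of the thresholds, 16 fell short of them, 5 passed newly and 3 changed sign between values that were not called (Sort1 a without B6 009, and Lrp1 a with the replicate block and without NZO 007). None reversed a call. For the 15 probes of the members other than Sorl1, the count of 2 higher became 4 with slide as a fixed term (both Lrpap1 probes) and, counted in genes after averaging the probes of a gene, 1 (Vldlr, with Vldlr b in the mean), where the count of 4 lower also became 1. No share of all genes is given beside these gene counts, so they are not read further. Counted in probes, the 4 lower became 3 with normexp, in the deposited table, with slide as a fixed term and without NZO 011. They became 5 with the replicate block, without NZO 007 and without NZO 009. Over only the probes well above background on all 8 arrays, an alternative chosen after seeing the data, the counts were 1 higher and 3 lower among the members and 1 higher and 0 lower in the trafficking list. For the trafficking list, the count of 1 higher became 3 with slide as a fixed term and was between 1 and 3 when a mouse was left out (2 without NZO 007 or B6 015, 3 without B6 011). Its count of 2 lower became 0 with the normexp correction and with slide as a fixed term, 1 with the methods' t-test, 3 in the deposited table and 3 with no filter on dim probes, and was between 1 and 2 when a mouse was left out (1 without B6 010 or B6 009). In limma, the probes lower at an unadjusted p under 0.05 and any fold were 4 as reported, 4 with normexp, 0 with slide as a fixed term and 15 in the deposited table, and those higher were 6, 9, 5 and 2. No share of all tested probes is given at this criterion, so these counts are not read further. The deposited table is not scaled between arrays, and the median difference of all probes in it was -0.15, a shift of -0.17.

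The difference of Sorl1 a was 1.501 with normexp and 1.90 in the deposited table, both of which leave dim signals raised by construction, and that of Sorl1 b was -0.15 with slide as a fixed term, where only the 3 arrays of the shared slide inform the contrast. Only numbers 009 and 011 occurred in both strains, and same-numbered mice did not deviate together (r = -0.26 and -0.0040). Same-numbered mice were on different slides and scan days, so these values cannot decide whether the numbers pair the mice. With mouse number as a replicate block the difference of Sorl1 a was 3.46. With slide as a fixed term or with the replicate block, fits with fewer degrees of freedom, limma's adjusted p rose above 0.05 for both Scarb1 probes, both Lrpap1 probes (up to 0.133 and 0.172), Sort1 b and Gga2. Its range over 17 alternatives was 0.000154 to 0.175 for Scarb1 a and 0.00101 to 0.21 for Sort1 b. Levels near background, as of Vldlr b in B6, limit the size of a fold.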
